A study of Homo sapiens with 4 samples.

Results

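ATP-dependent chromatin remodellers use the energy of ATP to slide, evict or space nucleosomes. The 41 genes described here encode subunits of 3 families of these machines: 26 SWI/SNF genes, 7 ISWI genes and 8 CHD genes. They were taken from a list of gene symbols, and their regions are the rows of 4 deposited region tables whose assigned gene is 1 of the 41. That gave 149 of 45672 regions. Of the 41 genes, 32 had a region in at least 1 table, 2 (ARID1B and CHD7) had a region in every table, and 9 (22.0%) had none, beside 51.9% of all protein-coding genes. The background for every count is the 20033 protein-coding genes of the RefSeq gene table for GRCh38.p14.

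SWI/SNF complexes are built around the ATPase SMARCA4 (BRG1) or SMARCA2 (BRM), and occur as BAF, with ARID1A or ARID1B, as PBAF, with ARID2, PBRM1, BRD7 and PHF10, and as a noncanonical form with BRD9. They open chromatin at enhancers and promoters, and several of their genes are mutated in cancer. ISWI complexes, with SMARCA5 (SNF2H) or SMARCA1 (SNF2L) as motor, space nucleosomes evenly. Of the CHD proteins, CHD1 and CHD2 act along transcribed genes, CHD3 and CHD4 are motors of the repressive NuRD complex, and CHD6 to CHD9 form a further subfamily. In blood, the SMARCA4 form of BAF is known for its part in keeping leukaemia cells growing, and SMARCD2 for its part in granulocyte development.

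The regions mark H3K27ac, an acetylated lysine of histone H3 found at active enhancers and promoters, in Kasumi-1, a human acute myeloid leukaemia line with the t(8;21) RUNX1::RUNX1T1 fusion. They were measured by CUT&Tag, in which a tethered transposase cuts DNA next to an antibody. The controls carried the non-targeting guide sgNT and are labelled wild type, and the other group carried the guide sgSETD8, with SETD8 (KMT5A), the methyltransferase of H4 lysine 20, knocked out by CRISPR/Cas9. No time after editing, clone or selection is given. There were 2 samples per group and 4 tables, 2 per group. By their peak names the tables form a pair with few regions (5186 in sgNT and 7276 in sgSETD8), here the sparse pair, and a pair with many (15149 and 18061), the dense pair. The control name in the sparse pair carries no guide at all, and its table was placed in sgNT because it names no SETD8 guide. The study's design text names H3K27me1 while the sample titles and antibody labels name H3K27ac.

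No read count is given for any region, and depth is therefore unknown. No label says that the 2 samples of a group were separate cultures. With 2 tables against 2, an exact two-sided permutation test cannot go below p = 0.333, so no test was run and every difference below is a description of these tables. Exact (Clopper-Pearson) 95% intervals of shares cover counting error only, and regions of 1 gene are not independent of each other. Genes used to check the cell type had regions in the tables: 9, 10, 11 and 12 of 12 Kasumi-1 genes (RUNX1, CD34 and KIT among them) in sparse sgNT, sparse sgSETD8, dense sgNT and dense sgSETD8. Lists for T cells, B cells, red cells, epithelium and liver together had between 2 and 18 regions per table, against 20 to 79 for the Kasumi-1 list. In dense sgNT and dense sgSETD8, RUNX1 had 28 and 29 of these and CD34 17 and 17. Counted by gene there, 4 and 4 of 5 T cell genes and 2 and 3 of 5 B cell genes had a region. For red cells it was 1 and 1 of 5, for epithelium 0 and 1 of 4, and for liver 1 and 1 of 2. SETD8 itself had 1 region in each dense table and none in the sparse tables, and a histone mark at the gene does not measure its loss.

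Of the members' RefSeq promoter windows (250 bases before to 50 after an annotated start; 52 windows for 33 of the 41 genes), a region covered 10 in dense sgNT (19.2%, against 9.21% of 22198 windows of all protein-coding genes) and 12 in dense sgSETD8 (23.1%, against 10.9%). None was covered in the sparse tables, where 0.203% (sgNT) and 0.108% (sgSETD8) of all windows were covered. For 6 of the 33 genes the window at the outermost start with a window was covered in only 1 of the dense tables. The same share over all genes was not counted. The other 8 members have no window here, CHD7 and SMARCC1 among them. Cover includes the gaps between joined peaks, and the SMARCB1, BAZ2B, BRD7 and CHD9 windows lie under regions of more than 1 peak. For the 6 genes, the 250 bases before that start are printed 5′ to 3′ on the gene's own strand, from RefSeq on GRCh38.p14. Capitals mark each copy of GGGCGG, the GC box that SP1 family factors bind, on either strand (CCGCCC is the same motif on the opposite strand).

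Covered in dense sgSETD8 only were SMARCD2 (chr17:63842686-63842935, minus strand), SMARCB1 (chr22:23786716-23786965, plus strand) and BAZ2B (chr2:159712443-159712692, minus strand, under a region assigned to the neighbouring gene MARCH7).
SMARCD2: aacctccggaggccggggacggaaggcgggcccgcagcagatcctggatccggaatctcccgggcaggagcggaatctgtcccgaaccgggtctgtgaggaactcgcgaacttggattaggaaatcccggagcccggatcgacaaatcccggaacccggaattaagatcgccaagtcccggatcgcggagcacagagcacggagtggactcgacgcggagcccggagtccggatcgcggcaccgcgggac
SMARCB1: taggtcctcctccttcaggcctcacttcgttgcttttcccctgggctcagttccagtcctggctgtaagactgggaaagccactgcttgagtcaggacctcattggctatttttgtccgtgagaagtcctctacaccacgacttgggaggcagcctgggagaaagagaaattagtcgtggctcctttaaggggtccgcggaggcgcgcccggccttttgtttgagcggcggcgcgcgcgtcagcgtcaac
BAZ2B: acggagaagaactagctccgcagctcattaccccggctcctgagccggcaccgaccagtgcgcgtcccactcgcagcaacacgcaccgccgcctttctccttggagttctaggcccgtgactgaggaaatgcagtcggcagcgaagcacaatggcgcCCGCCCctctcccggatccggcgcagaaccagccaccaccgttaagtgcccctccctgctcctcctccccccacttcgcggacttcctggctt

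Covered in dense sgNT only were SS18L1 (chr20:62143519-62143768, plus strand, under a region assigned to its neighbour PSMA7), BRD7 (chr16:50368989-50369238, minus strand) and CHD9 (chr16:53054741-53054990, plus strand).
SS18L1: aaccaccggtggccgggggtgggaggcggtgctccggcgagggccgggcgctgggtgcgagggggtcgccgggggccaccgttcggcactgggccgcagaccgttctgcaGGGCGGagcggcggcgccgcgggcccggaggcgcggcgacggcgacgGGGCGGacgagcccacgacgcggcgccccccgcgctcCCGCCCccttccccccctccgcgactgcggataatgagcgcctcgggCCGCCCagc
BRD7: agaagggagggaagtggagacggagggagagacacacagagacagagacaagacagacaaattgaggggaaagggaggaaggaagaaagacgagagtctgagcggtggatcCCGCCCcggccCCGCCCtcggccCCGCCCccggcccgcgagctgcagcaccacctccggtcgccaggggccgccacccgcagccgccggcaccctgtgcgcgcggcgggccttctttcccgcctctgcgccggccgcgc
CHD9: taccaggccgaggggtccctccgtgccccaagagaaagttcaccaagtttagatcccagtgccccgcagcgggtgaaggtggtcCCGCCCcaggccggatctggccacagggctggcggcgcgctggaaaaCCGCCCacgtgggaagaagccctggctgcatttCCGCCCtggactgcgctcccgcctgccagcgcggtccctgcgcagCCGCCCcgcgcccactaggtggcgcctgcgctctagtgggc

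The 3 stretches covered in the control only held 4, 3 and 4 GC boxes in SS18L1, BRD7 and CHD9, and the 3 covered in sgSETD8 only held 0, 0 and 1 in SMARCD2, SMARCB1 and BAZ2B. Further SMARCD2 windows, at the starts chr17:63842466 and chr17:63838728, were also covered in dense sgSETD8 only and held 2 and 0. This is a description of stretches chosen by their coverage. Over all member windows, 63.5% held a GC box in these 250 bases against 53.7% of all windows. CCAAT, the NFY box, was in 30.8% against 32.7%, CCGGAAG, an ETS-type sequence, in 5.77% against 10.7%, and TGTGGT, the core that RUNX factors bind, in 3.85% against 9.36% (both strands searched, each motif counted on its own). Median GC content was 66.6% in the member windows and 62.0% in all windows.

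The 41 genes had 22 regions in sparse sgNT, 8 in sparse sgSETD8, 54 in dense sgNT and 65 in dense sgSETD8. In the dense pair sgSETD8 therefore held 54.6% of member regions (95% interval 45.2 to 63.8), beside 54.4% of all regions of that pair. In the sparse pair it held 26.7% (12.3 to 45.9), beside 58.4% of all regions. The log2 ratio of sgSETD8 to sgNT was 0.27 in the dense pair and -1.46 in the sparse pair, so the 2 pairs pointed in opposite directions, with a mean of -0.60 ± 1.22 (SD, n = 2 pairs). Over all regions the same ratio was positive in both pairs, 0.25 and 0.49.

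**Figure D1:**
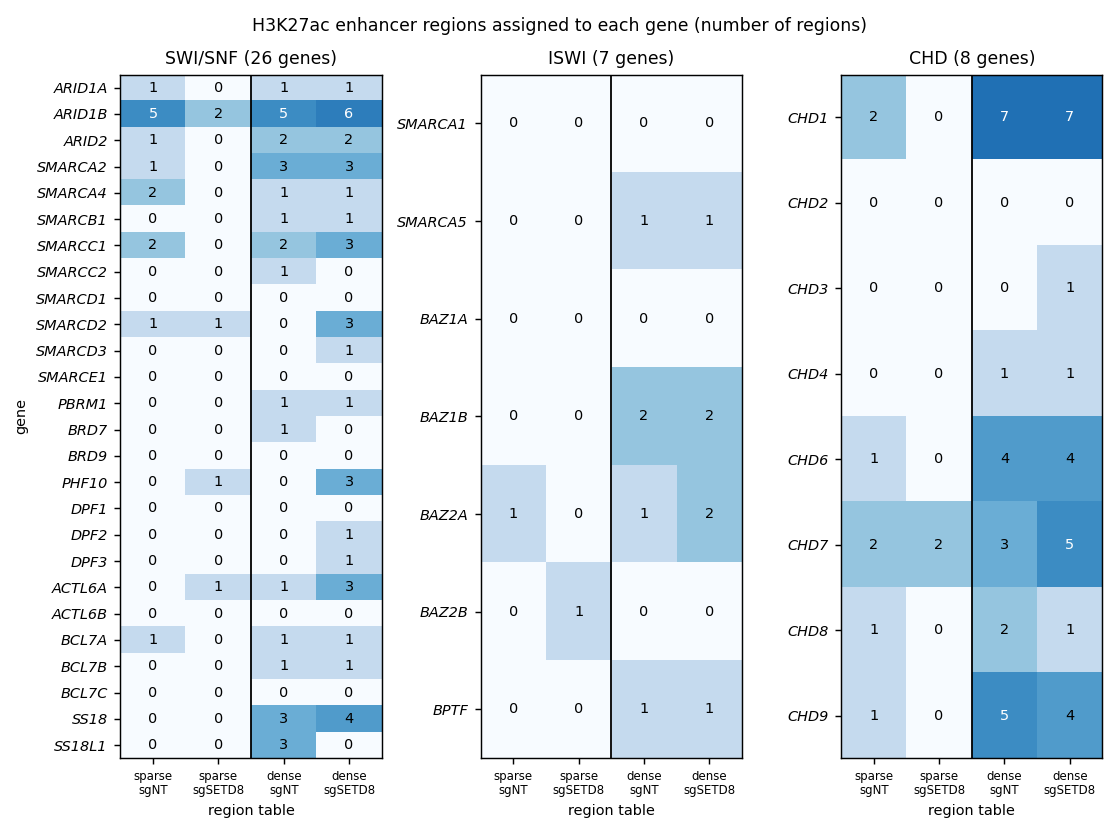
Number of H3K27ac regions assigned to each of the 41 genes (rows) in the 4 tables (columns), by family; darker cells hold more regions and the vertical line separates the sparse from the dense pair. ARID1B, CHD1, CHD7 and CHD9 hold the most regions, and most cells of the sparse sgSETD8 column are 0.

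By family, SWI/SNF genes had 27 regions in dense sgNT and 36 in dense sgSETD8 (57.1% from sgSETD8, 44.0 to 69.5), ISWI genes 5 and 6 (54.5%, 23.4 to 83.3) and CHD genes 22 and 23 (51.1%, 35.8 to 66.3), and all 3 intervals contain the 54.4% of all regions. The difference between families was not tested. Counted by peaks, sgSETD8 held 66.2% for SWI/SNF, 56.5% without ARID1B, beside 57.1% for ISWI and 53.9% for CHD. In the sparse pair SWI/SNF genes had 14 and 5 regions (26.3%, 9.15 to 51.2), CHD genes 7 and 2 (22.2%, 2.81 to 60.0) and ISWI genes 1 and 1. CHD genes carried the most regions per gene, 2.75 in dense sgNT and 2.88 in dense sgSETD8, beside 1.04 and 1.38 for SWI/SNF and 0.714 and 0.857 for ISWI. Median gene spans were 102 kb, 39.5 kb and 81.9 kb for CHD, SWI/SNF and ISWI. Per 100 kb of gene the dense values were 2.16 and 2.26 for CHD, 1.24 and 1.65 for SWI/SNF and 0.541 and 0.649 for ISWI. The order of assigned regions was thus the same per length, but by the median percent of covered bases it differed (below). The members as a whole are long genes, with a median span of 60.5 kb against 24.1 kb over all protein-coding genes.

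**Figure D2:**
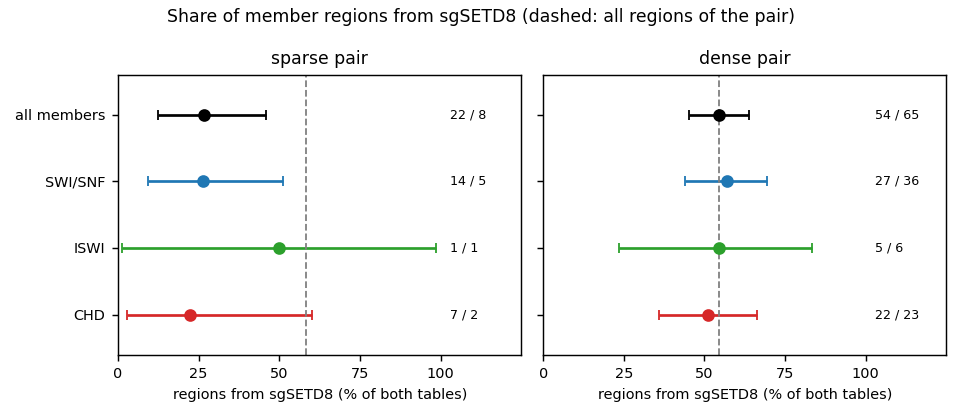
Share of member regions that come from sgSETD8 (x axis, percent of both tables of a pair) for all 41 genes and for each family, sparse pair on the left and dense pair on the right; bars are exact 95% intervals, the numbers give regions in sgNT / sgSETD8, and the dashed line is the share over all regions. The dense points lie at 51.1% to 57.1%, close to the line at 54.4%, while the sparse point for all members lies at 26.7%, left of the line at 58.4%.

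Counted by gene, 12 of the 31 members with a region in the dense pair had more regions in sgSETD8 (38.7%) and 5 had fewer (16.1%). Over all 8172 genes with a region in that pair the percentages were 36.0% and 21.0%. Of the 31 genes, 6 (19.4%, against 19.1% of all such genes) had a region in sgSETD8 only, and 3 (9.68%, against 11.2%) in sgNT only. These shares are near the background. When each table was limited to its top 5000 regions by signal the numbers were 3 and 1, and no share over all genes is given for that limit. In the sparse pair 3 of 17 members had more regions in sgSETD8 and 12 had fewer (70.6%), beside 48.1% and 36.1% of all 5225 genes with a region there.

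The sparse difference involved sites that the dense sgSETD8 table also lists. Of the 22 member regions of sparse sgNT, 20 overlapped a region of dense sgSETD8 (90.9%, 70.8 to 98.9), against 74.5% of all sparse sgNT regions. A region of dense sgNT was overlapped by 18 (81.8%, 59.7 to 94.8), against 71.2%. Both intervals contain the value of all regions. A region of sparse sgSETD8 was overlapped by 1 (4.55%, against 20.9% of all sparse sgNT regions). Of the 8 member regions of sparse sgSETD8, 6 overlapped dense sgNT and 6 dense sgSETD8 (75.0%, while 24.7% and 26.3% of all sparse sgSETD8 regions overlapped one of dense sgNT and dense sgSETD8). Among sparse regions that overlap a dense region, members had 20 in sgNT and 8 in sgSETD8 (28.6% from sgSETD8, 13.2 to 48.7), beside 34.2% over all genes. With that restriction the members' interval contains the value of all genes. Median width over all regions was 512 bp in sparse sgNT and 341 bp in sparse sgSETD8. With regions of at least 500 bp the members had 17 and 1 (5.56% from sgSETD8), beside 38.2% over all genes. The part of region width in the sparse difference was not tested.

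Both ATPases of SWI/SNF had the same number of regions in the 2 dense tables. SMARCA4 had 2, 0, 1 and 1 regions in sparse sgNT, sparse sgSETD8, dense sgNT and dense sgSETD8, the order used for all such counts below. Its dense region in the first intron held 5 peaks over 15.5 kb in sgNT and 3 peaks over 13.3 kb in sgSETD8. SMARCA2, the alternative ATPase, had 1, 0, 3 and 3 regions. Its region over an internal start at chr9:2021945 (chr9:2016671-2026297 in sgNT) was present in both dense tables, at ranks 2456 and 2860. Rank 1 is the region with the most signal in its table. The promoter window at the outermost start, chr9:2015347, was covered in no table. In SMARCA2, 1 intronic peak of each dense table (chr9:2044043-2044382 in sgNT and chr9:2128065-2128655 in sgSETD8) had no counterpart in the other. For both ATPases, sparse sgSETD8 was the only table without a region.

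ARID1B, the large DNA-binding subunit of BAF, stood out in size. It had 5, 2, 5 and 6 regions, and in dense sgSETD8 its region chr6:156770181-157128935 was the widest of all 18061 regions of the table, at 358755 bp, and the one with the most peaks, 86, at rank 7. In dense sgNT the same stretch was listed as 3 regions: 62 peaks at chr6:156770995-157022239 (rank 11), assigned to the microRNA gene MIR4466, 1 peak at chr6:157037215-157037802, and 20 peaks at chr6:157050631-157130126 (rank 369). Together these 3 held 83 peaks and covered 92.0% of the sgSETD8 region, at a mean signal density of 0.925 per bp against 0.71. These densities are not centred: over all matched dense regions (below) the median log2 ratio of sgSETD8 to sgNT was -0.26. The number of peaks and the stretch covered were thus close in both tables, while the joining of peaks and the assigned gene differed. The assignment also moved the members' peak total: peaks in member regions numbered 180 in dense sgNT and 283 in dense sgSETD8, but 151 and 187 without ARID1B, which is 55.3% from sgSETD8 beside 52.8% over all peaks.

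**Figure D3:**
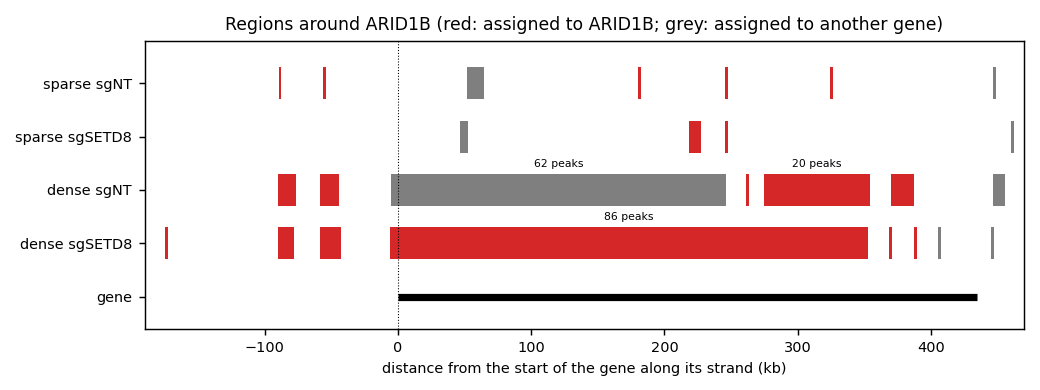
H3K27ac regions around ARID1B in the 4 tables, by distance in kb from the start of the gene along its strand (dotted line; the black bar is the gene); red regions are assigned to ARID1B and grey ones to another gene, and regions of 5 or more peaks carry their peak number. The 62-peak and 20-peak regions of dense sgNT span the stretch that dense sgSETD8 lists as 1 region of 86 peaks.

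The other ARID subunits were wide domains in both dense tables. ARID1A, the BAF subunit most often mutated in cancer, had 1, 0, 1 and 1 regions. Its dense region held 11 peaks over 37.8 kb in sgNT (chr1:26690027-26727842, rank 519) and 14 peaks over 61.3 kb in sgSETD8 (chr1:26692254-26753556, rank 365). ARID2, of PBAF, had 1, 0, 2 and 2 regions, led by 16 peaks over 58.2 kb in sgNT (rank 281) and 22 peaks over 74.0 kb in sgSETD8 (rank 246). For both genes the sgSETD8 region was wider and ranked higher, at a lower density (0.938 against 0.610 per bp for ARID1A). These densities are not centred, and lower density in sgSETD8 was general: the median log2 ratio over all matched dense regions was -0.26. The ARID1A region of sgSETD8 also overlapped a further dense sgNT region, 3 peaks at chr1:26742938-26749655 assigned to the neighbour PIGV. For ARID1A, width, peaks, rank and density thus compare 1 joined region with only part of what the control lists there.

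Among the core subunits shared by SWI/SNF complexes, SMARCD2 and SMARCB1 had a region over the printed start in dense sgSETD8 only. SMARCD2 had 1, 1, 0 and 3 regions. Dense sgSETD8 listed chr17:63834746-63835646, chr17:63837498-63844700 and chr17:63847764-63850035, and the second, 7.20 kb over the start and first introns at rank 2094 and a density of 1.39 per bp, overlapped no region of dense sgNT. The last lies upstream of SMARCD2 and overlapped a dense sgNT region, chr17:63848764-63854094, that was assigned to the neighbour TCAM1P. A sparse sgNT region of SMARCD2 lay there too (chr17:63848754-63849683, rank 335, density 9.18 per bp). The sparse sgSETD8 region next to it (chr17:63847786-63848173) overlapped the dense sgSETD8 region but no sgNT region. All 4 tables thus had a region upstream, though at no shared position, and 1 had a region over the start. Downstream, the regions of the neighbour PSMC5 were in both dense tables.

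That absence is from a list of regions, not from a signal track. Peak numbers in the region names run in genome order, and numbers that no listed region uses can be counted: 22.9% of numbered peaks in dense sgNT and 20.6% in dense sgSETD8, 60.5% in sparse sgNT and 28.5% in sparse sgSETD8. Between the nearest single-peak regions around SMARCD2, dense sgNT skipped 6 numbers over 143 kb, so 1 or more unlisted peaks could lie at SMARCD2. Around BRD7, a PBAF subunit with 0, 0, 1 and 0 regions, the dense sgSETD8 table skipped 1 number over 320 kb. BRD7's region in dense sgNT, chr16:50360712-50373913, was 13.2 kb wide at rank 4162, and no region of any gene touched BRD7 in dense sgSETD8.

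SMARCB1, the core subunit lost in rhabdoid tumours, had 0, 0, 1 and 1 regions. Its dense region was 1 peak of 0.488 kb in the first intron in sgNT (chr22:23789540-23790027) and 2 peaks joined over 5.97 kb in sgSETD8 (chr22:23784058-23790027), reaching over the start. SMARCC1, a scaffold subunit, had 2, 0, 2 and 3 regions, with its 3 dense sgSETD8 regions between chr3:47739426 and chr3:47788927. SMARCC2, the other scaffold, had 0, 0, 1 and 0 regions, and its only region was a 0.344 kb peak at rank 14443 in the neighbouring gene RNF41. Within SMARCC2 and 5 kb either side, 4.58 kb were covered in both dense tables by regions of other genes. The region that SMARCC2 lacks in sgSETD8 is that low-ranked peak.

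ACTL6A, the actin-related BAF53A subunit, had 0, 1, 1 and 3 regions, all of 2.10 kb or less. SMARCD3 had 0, 0, 0 and 1, a 0.489 kb peak at rank 15099. BCL7A, an accessory subunit first found at a lymphoma translocation, had 1, 0, 1 and 1 regions, but its dense regions were different places: 2.90 kb inside BCL7A in sgNT (chr12:122024030-122026933), and in sgSETD8 a region starting at chr12:121968342 inside the neighbour CFAP251. No region touched BCL7A itself in dense sgSETD8. BCL7B had 0, 0, 1 and 1, each under 0.5 kb and at different places.

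The SS18 pair, subunits of BAF and noncanonical BAF, diverged from each other. SS18, the gene fused in synovial sarcoma, had 0, 0, 3 and 4 regions, and all 3 of the control's dense regions were overlapped in sgSETD8. SS18L1 (CREST), its paralogue, had 0, 0, 3 and 0. Its 3 regions of dense sgNT lie in introns at chr20:62148629-62149963, chr20:62150419-62150851 and chr20:62155398-62157332, downstream of the PSMA7 region that covers its start (chr20:62140787-62145942, rank 3041, density 1.44 per bp). None of the 4 was overlapped in dense sgSETD8, where the nearest region within 5 kb of the gene was chr20:62185687-62186173, past its end. That table skipped 4 peak numbers over 115 kb around the gene.

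The remaining PBAF and BAF subunits showed small regions or shifted assignments. PBRM1, the polybromo subunit of PBAF, had 0, 0, 1 and 1 regions, 9.11 kb of 2 joined peaks in sgNT and 0.979 kb of 1 peak in sgSETD8. PHF10, the PHD-finger subunit of PBAF, had 0, 1, 0 and 3 regions and was the only member listed under sgSETD8 in both pairs and under sgNT in none. In dense sgNT, however, 1 region of 7 peaks, chr6:169692183-169715095, covered part of PHF10 and was assigned to C6orf120, while dense sgSETD8 listed single peaks there. Covered bases in PHF10 and 5 kb either side were 16.2 kb in dense sgNT and 8.57 kb in dense sgSETD8, the reverse of its region count. DPF2 and DPF3, double PHD-finger subunits, each had 0, 0, 0 and 1, single peaks of 0.385 and 0.348 kb at ranks 15143 and 17254 of 18061.

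**Figure D4:**
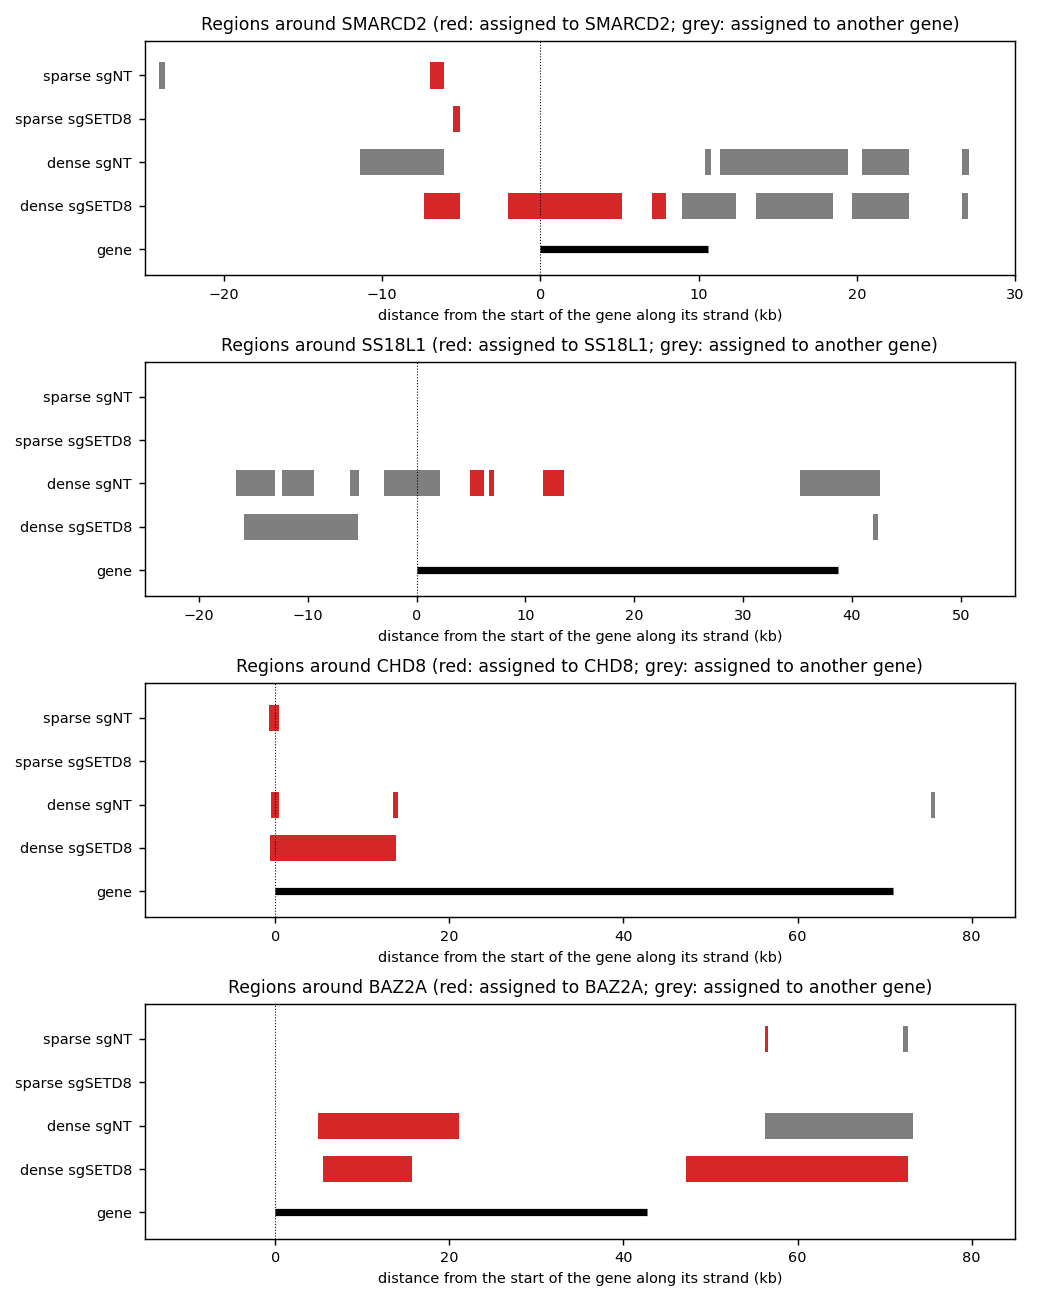
H3K27ac regions around SMARCD2, SS18L1, CHD8 and BAZ2A in the 4 tables, by distance in kb from the start of each gene along its strand (dotted line; the black bar is the gene); red regions are assigned to the named gene and grey ones to a neighbour. Dense sgSETD8 alone has a region over the start of SMARCD2, dense sgNT alone has one over the start of SS18L1, and at CHD8 the 2 dense sgNT regions correspond to 1 joined region in dense sgSETD8.

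ISWI genes had few assigned regions. SMARCA5, the more widely expressed ISWI motor, had 0, 0, 1 and 1, both at 1 site near chr4:143438831 in the gene GAB1, and SMARCA1 had none. Among their partners, BPTF, the NURF subunit, had 0, 0, 1 and 1, with 8 peaks over 37.6 kb in sgNT and 11 over 33.0 kb in sgSETD8 (ranks 1124 and 1342). BAZ1B had 0, 0, 2 and 2, all of 1.31 kb or less. BAZ2A, of the nucleolar complex NoRC, had 1, 0, 1 and 2. Its intragenic region spanned 4.93 to 21.1 kb from its start in dense sgNT and 5.44 to 15.7 kb in dense sgSETD8. The second sgSETD8 region lay beyond the gene, overlapping a dense sgNT region assigned to RBMS2. BAZ2B had 0, 1, 0 and 0 assigned regions.

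CHD1, which binds H3K4me3 and remodels nucleosomes in transcribed genes, had 2, 0, 7 and 7 regions, the most of any member in the dense pair. Of its 7 regions in dense sgNT, 5 lie outside the gene span, 3 of them in the divergent transcript CHD1-DT and the farthest 173070 bp from the start. CHD7, the gene of CHARGE syndrome, had 2, 2, 3 and 5. Its main region held 32 peaks over 114 kb in dense sgNT (rank 73, density 0.990 per bp) and lay inside the gene. In dense sgSETD8 it held 30 peaks over 121 kb (rank 88, density 0.678 per bp) and began upstream of the gene. Centred on all matched dense regions (below), its log2 density ratio was -0.28. CHD7 was the only member in the top 100 regions of dense sgNT, and CHD7 and ARID1B were the only ones in dense sgSETD8.

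CHD9 had 1, 0, 5 and 4 regions. The first of its dense sgNT regions, 10 peaks at chr16:53054509-53094790 covering the start, and the second, 2 peaks at chr16:53110851-53121864, corresponded to 1 region of 14 peaks at chr16:53057867-53122090 in sgSETD8, whose left edge lies past the start. CHD6 had 1, 0, 4 and 4. CHD8, a gene whose loss is linked to autism, had 1, 0, 2 and 1. Its dense sgNT regions, chr14:21442017-21442584 and chr14:21455734-21456646, both overlapped 1 sgSETD8 region of 4 peaks, chr14:21442195-21456707. A sparse sgNT region (chr14:21455701-21456866, rank 770) overlapped chr14:21455734-21456646. Both lie at a start of CHD8 that is not among the promoter windows above, where the CHD8 window is at the start chr14:21437275. CHD4 had 0, 0, 1 and 1 and CHD3 0, 0, 0 and 1, a 0.872 kb peak at rank 13739 in the neighbour NAA38. The listed regions of NuRD's motors were thus single peaks. Those of CHD4 ranked 10755 of 15149 in dense sgNT and 9729 of 18061 in dense sgSETD8. Unlisted peaks could lie there too: dense sgNT and dense sgSETD8 skipped 10 and 18 numbers around CHD4 (over 155 and 232 kb). Around CHD3 they skipped 23 and 14 (over 1590 and 1080 kb).

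A gene's region count misses regions that were assigned to a neighbour, so covered bases were also taken over each gene with 5 kb either side, whatever gene a region was assigned to. These bases include the gaps between joined peaks. By this measure 36 of the 41 genes (87.8%) had a covered window in the dense pair, against 31 (75.6%) by assignment. Over all protein-coding genes, which are shorter, the percentages were 45.5% and 40.8%. CHD2 had no assigned region in any table, yet 35.9 kb of its window were covered in dense sgNT and 43.8 kb in dense sgSETD8, by 2 regions in each table assigned to MIR3175 and, in sgSETD8, a 0.761 kb region assigned to RGMA. BAZ1A, of the ACF complex, likewise had none, with 22.7 kb covered in dense sgNT and 49.2 kb in dense sgSETD8. In BAZ2B 75.9 and 89.4 kb were covered, and SMARCD1 and BRD9 had 0.864 kb in sgSETD8 only and 2.80 kb in sgNT only. SMARCE1, DPF1, ACTL6B, BCL7C and SMARCA1 had nothing covered in any table.

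Of the 36 genes, 13 (36.1%) had more covered bases in dense sgSETD8 by at least 0.32 on the log2 scale, and 5 (13.9%) had fewer by at least as much, beside 30.6% and 17.8% of all 9112 genes with a covered window. CHD genes had 5 more, 0 fewer, 2 within that range and 1 (CHD3) covered in sgSETD8 only, with a median ratio of 1.34 where both were covered. SWI/SNF genes had 6 more and 4 fewer, with a median ratio of 1.00, and ISWI genes 2 more and 1 fewer, with a median of 1.15. The median over all genes was 1.09. The median percent of the window covered in dense sgNT and dense sgSETD8 was 17.1% and 19.9% for ISWI genes. It was 5.85% and 15.0% for CHD and 6.49% and 2.5% for SWI/SNF. By this median ISWI came first, while by assigned regions per gene it came last. Summed over the windows of each family, covered bases were 15.6% and 18.8% for ISWI. They were 22.8% and 29.2% for CHD and 23.7% and 24.2% for SWI/SNF, so ISWI came last there too. Whether the families differ was not tested. SMARCD2 went from 4.67 to 13.5 kb, and among genes covered in both tables SS18L1 had the lowest ratio, from 16.2 to 0.487 kb. CHD8 went from 1.91 to 14.5 kb, a stretch that includes the gaps between 4 joined peaks.

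**Figure D5:**
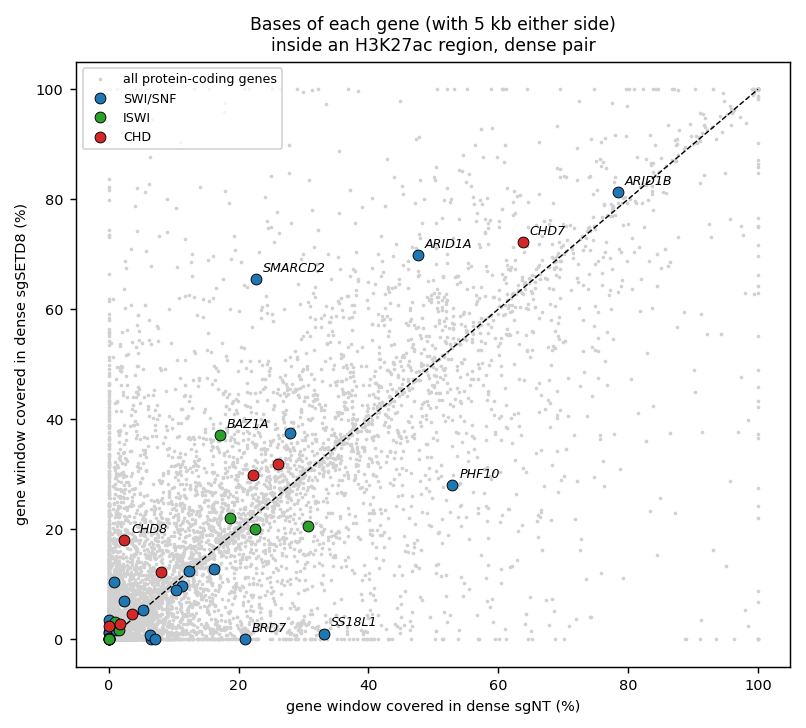
Percent of each gene, with 5 kb either side, inside a region of dense sgNT (x axis) and dense sgSETD8 (y axis); coloured points are the 41 genes by family, grey points all protein-coding genes, and the dashed line marks equal cover. SMARCD2 (22.6% and 65.5%) lies above the line, SS18L1 (33.2% and 0.999%) and PHF10 (52.9% and 28.0%) below it, and ARID1B and CHD7 near it at the upper right.

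The overlap between the dense tables was also counted by family. Of the CHD regions of dense sgNT, 21 of 22 (95.5%, 77.2 to 99.9) overlapped a dense sgSETD8 region, and of the SWI/SNF regions 18 of 27 (66.7%, 46.0 to 83.5), beside 77.3% of all regions. In the other direction 19 of 23 CHD regions (82.6%, with a lower bound of 61.2) and 22 of 36 SWI/SNF regions (61.1%, 43.5 to 76.9) overlapped one of dense sgNT, beside 66.0% of all. The intervals of the 2 families overlap in both directions, and the difference was not tested. Of the 9 SWI/SNF regions of dense sgNT without a partner, 3 were those of SS18L1.

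Signal density could be compared at regions that covered each other by at least 90%, 1769 in the dense pair, after their median log2 ratio of -0.26 was set to 0 (SD over these regions 0.24). Of these, 5 were member regions. ARID1B's upstream region chr6:156717910-156732039 had a density of 0.531 per bp in sgNT and 0.610 per bp in sgSETD8, 1.38-fold higher after centring (log2 0.47). CHD7's main region was at -0.28, SMARCA2's at -0.09 and CHD1's pair at -0.04 and 0.12, all within 0.32 on the log2 scale. Of all matched regions 8.71% were higher by at least 0.32 and 7.97% lower by at least as much. The median of the 5 was -0.04.

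By position, member regions lay mostly in introns: 81.5% in dense sgNT and 76.9% in dense sgSETD8, beside 68.3% and 67.5% of all regions. In dense sgNT 37 of the 54 lay inside the gene they were assigned to, 5 across its edge and 12 outside, and in dense sgSETD8 the numbers were 37, 8 and 20 of 65. In sparse sgNT 11 of 22 lay inside, 1 across the edge and 10 outside. Median width was 2783 bp in dense sgNT and 2272 bp in dense sgSETD8, wider than the 1515 and 1499 bp of all regions. A gene assignment by the nearest start is thus not the same as a region in the gene.

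A list of 47 genes of other remodelling machines (NuRD partners, INO80, SRCAP and TIP60 subunits, further ISWI partners and other SNF2-type ATPases) gave 14, 13, 31 and 38 regions. In the dense pair 55.1% came from sgSETD8 (42.6 to 67.1), close to the 54.6% of the 41 members. In the sparse pair the share was 48.1% (28.7 to 68.1), beside 26.7%, with overlapping intervals. Of these genes 6 had more and 3 fewer regions in dense sgSETD8, and 21 had none in any table. INO80, the motor of the complex named after it, was the only one listed under sgSETD8 in both pairs and under sgNT in none (0, 1, 0 and 3).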

How the data were processed

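H3K27ac CUT&Tag libraries of 100000 Kasumi-1 cells were processed with cutadapt, Bowtie2 and the hg38 build, as listed in the submitters' processing notes. For versions, peak caller, joining and annotation, nothing is given in the sources. The deposited signal of a region is a density per bp times its width, as its values show, and what that density is scaled to is not given. Tables were grouped by the sample names inside their peak identifiers, and which of a group's samples each table holds is not resolved. Regions were taken by their deposited gene name, and genes were matched to RefSeq GRCh38.p14. Overlap meant at least 1 shared bp, a matched pair 90% mutual cover, and rank the order by deposited signal within a table. Members and lists were chosen with earlier results of these data known. Of the members, values in every table are given for those with a region in 1 group only of a pair, for the 3 of each family with the most regions (and ties), and for the extremes of matched density. Calculations used Python 3.11.15, pandas 2.3.3 and scipy 1.17.1, and overlap and matching were tested on simulated data. Alternatives were regions within 50 kb of a start, of at least 500 bp, better-ranked, or merged, and peaks in place of regions. Depth is unknown.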

Additional observations from a re-analysis of the deposited data

How the results depend on the processing

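Of the values of region counts and density under another setting, 46 moved by less than the spread or interval of the main value and 4 moved by more. Small values changed sign within that spread: the median log2 density ratio of matched member regions was -0.04, but 0.026 at 50% mutual cover, 0.023 among the best-ranked 5000 regions and 0.017 with 1 value per gene. With regions of at least 500 bp, the sparse share from sgSETD8 was 5.56% (17 and 1 regions), beside 38.2% over all regions of that width, and the mean log2 ratio over the pairs was -1.82. Among the best-ranked 5000 regions of each table, members with a dense region in sgSETD8 only numbered 3 and in sgNT only 1. For these counts no share over all genes is given. Leaving out 1 pair at a time, the mean log2 ratio ranged from -1.46 to 0.27, so it changed sign without the sparse pair. The cause was not tested. Leaving out ARID1B or CHD1, counting peaks without ARID1B, restricting sparse regions to those that overlap a dense one, and taking gene windows in place of assigned regions were chosen after seeing the data. By windows, 5 of 36 members were covered in dense sgSETD8 only (13.9%, against 16.9% of 9112 genes) and 3 in sgNT only (8.33%, against 9.75%). Tables were paired by their peak names only, and the labels give no replicate numbers that could serve as a block.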
